A study of Mus musculus with 20 samples.

Results

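The 7 genes described here encode subunits of the phagocyte NADPH oxidase, an enzyme that removes superoxide in mitochondria and an enzyme that makes a second oxidant. They were *Cybb* and *Cyba* (the membrane subunits), *Ncf1* and *Ncf4* (cytosolic subunits), *Rac2* (the GTPase that completes the complex), *Sod2* (mitochondrial superoxide dismutase) and *Nos2* (inducible nitric oxide synthase). They were taken by symbol from the 16003 genes of a single-cell count table of mouse spinal cord and followed through 14 cell clusters and 6 libraries. The mice were female C57BL/6J aged 8 to 10 weeks, fed vehicle chow or chow with PLX5622 (1200 ppm) from 2 weeks before surgery. Surgery was a laminectomy at T9, alone (sham) or with a contusion spinal cord injury (SCI), and cords were taken at 7 or 28 days post-injury (dpi). The sham labels name both days, so 1 sham library per diet served as reference for both times. All 6 libraries thus came from laminectomised mice, each library pooled the cords of several mice, and the cords were not perfused, so blood leukocytes could stay in them. PLX5622 blocks the receptor of colony-stimulating factor 1 and depletes microglia, and whether the microglia of these mice had survived it or had newly formed cannot be told apart here. The 14 bulk samples of the study were not analysed here.

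The phagocyte oxidase moves electrons from NADPH across a membrane to oxygen and so makes superoxide. At rest its parts are apart: *Cybb* and *Cyba* form the membrane flavocytochrome, while *Ncf1* and *Ncf4* join it with a Rac GTPase when a phagocyte meets microbes or debris. Superoxide dismutases turn superoxide into hydrogen peroxide, and nitric oxide from *Nos2* can combine with superoxide. In the injured cord neutrophils, monocytes, macrophages and microglia all can carry this system.

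On GRCm38 the annotated genes lie at chrX:9435252-9487771 (*Cybb*, minus strand), chr8:122424776-122432930 (*Cyba*, minus), chr5:134220053-134229625 (*Ncf1*, minus), chr15:78244801-78262580 (*Ncf4*, plus), chr15:78559167-78572783 (*Rac2*, minus), chr17:13006846-13040063 (*Sod2*, plus) and chr11:78920787-78960254 (*Nos2*, plus). *Cyba* overlaps *Gm20388* and *Ncf1* overlaps *Gtf2ird2*, each on the opposite strand. The promoters of *Cybb* and *Ncf1* are shown because these 2 genes had the highest and the lowest log2 ratio between injured and sham vehicle microglia. They are the 250 bases before the RefSeq start (GRCm38.p6, chrX:9469325-9469574 and chr5:134229626-134229875, both minus strand), 5′ to 3′, with motif matches on either strand in capitals. The motifs searched were CCAAT, known as a promoter box near many gene starts, and GGGCGG, the core of the GC box.
*Cybb*: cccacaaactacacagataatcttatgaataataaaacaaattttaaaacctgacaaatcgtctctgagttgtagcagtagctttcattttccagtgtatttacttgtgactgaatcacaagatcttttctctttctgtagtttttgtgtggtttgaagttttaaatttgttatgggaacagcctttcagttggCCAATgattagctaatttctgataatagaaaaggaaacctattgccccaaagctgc
*Ncf1*: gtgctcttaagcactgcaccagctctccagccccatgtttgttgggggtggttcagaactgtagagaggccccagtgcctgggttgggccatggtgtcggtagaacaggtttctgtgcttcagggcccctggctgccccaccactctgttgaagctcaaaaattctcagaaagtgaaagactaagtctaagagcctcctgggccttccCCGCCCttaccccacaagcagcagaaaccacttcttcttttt
The *Cybb* window held CCAAT 56 bases before the start and no GGGCGG. The *Ncf1* window held GGGCGG on the other strand 42 bases before the start and no CCAAT. The letters GAGGAA, which PU.1 is known to bind, were in neither window on either strand. Shorter or other forms of its site were not searched. Of 32851 RefSeq promoter windows of the same length, 33.8% held CCAAT, 32.7% the GC box and 23.3% GAGGAA, so these matches are a description of the letters. RefSeq windows were matched for 4 of the 7 genes, and the RefSeq start of *Cybb* lies inside the longer annotated gene.

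Counts are unique molecular identifiers (UMIs), each standing for 1 captured transcript end. The vehicle libraries held 1795 (sham), 7439 (7 dpi) and 9846 cells (28 dpi) and the PLX5622 libraries 492, 504 and 940, with medians of 2268.5 to 5127 UMIs per cell. For each cluster of each library the UMIs of a gene were added up and scaled by the total of that cluster to CPM, the usual depth-scaled count. Clusters were deposited as numbers and are named here from fixed markers, of which 67 of 79 were highest in the cluster given their name. Microglia passed with 5 of 6 markers and monocyte-derived macrophages (MDMs) with 6 of 6, leptomeningeal cells with 3 of 6, but 2 clusters are called here by a gene, since their leading genes did not go with 1 name. The *Ccr2*+ cells had 3 of 6 monocyte markers and were led by *Retnla*, *Cd209a*, *Alox15* and *Mgl2*, which are known from dendritic cells or tissue macrophages, while the monocyte markers *Ly6c2* and *Chil3* were highest in neutrophils. The *Cd3e*+ cells had all 4 detected T cell markers, but 6 of their 10 leading genes (*Gzma*, *Ncr1*, *Klrc1*, *Klre1*, *Xcl1* and *Gzmb*) are known from natural killer or cytotoxic cells. The pericytes had 6 of 6 markers but were led by *Dpt*, *Lum*, *Myoc* and *Aspn*, none of them a fixed marker. The leptomeningeal markers *Slc6a13* and *Col1a2* were also highest there, so the name pericytes is less sure. Each condition is 1 library, so no test between conditions was possible and no p-value is given. Ranges in parentheses are exact 95% intervals, and these and the limits of 3 counts used where a gene had no UMI cover counting error only, not mice or libraries. Values under 20 cells, as for the 9 MDMs of PLX5622 sham cords and the neutrophils of 2 PLX5622 libraries (11 cells in sham cords and 12 at 7 dpi), rest on very few cells. Levels are of 3′ ends and are compared between clusters and libraries, not between genes.

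*Cybb*, *Ncf1*, *Ncf4* and *Rac2* all had their highest level in neutrophils when the 6 libraries were pooled. For *Cybb* the order was neutrophils (1463 CPM), *Ccr2*+ cells (830 CPM), MDMs (391 CPM), intermediate progenitors (345 CPM) and B cells (245 CPM), and microglia stood at 136 CPM. For *Cyba* MDMs came first with 2130 CPM, followed by neutrophils (1552 CPM) and *Ccr2*+ cells (1475 CPM), whose intervals overlapped, and microglia (1417 CPM). *Ncf1* followed another order, with neutrophils at 711 CPM, then microglia (246 CPM) and *Ccr2*+ cells (234 CPM), which did not differ beyond counting error, and MDMs lower at 158 CPM. *Ncf4* was at 289 CPM in neutrophils, with *Ccr2*+ cells (146 CPM) and B cells (141 CPM) next and overlapping. *Rac2* was at 1099 CPM in neutrophils and 893 CPM in *Cd3e*+ cells, well above MDMs (168 CPM) and microglia (167 CPM), which did not differ from each other. *Sod2* was not highest in a myeloid cluster, and astrocytes (169 CPM), ependymal cells (154 CPM) and leptomeningeal cells (129 CPM) led with overlapping intervals. Pooled levels weight the libraries by their cells, so each library is given for the members in turn.

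**Figure D1:**
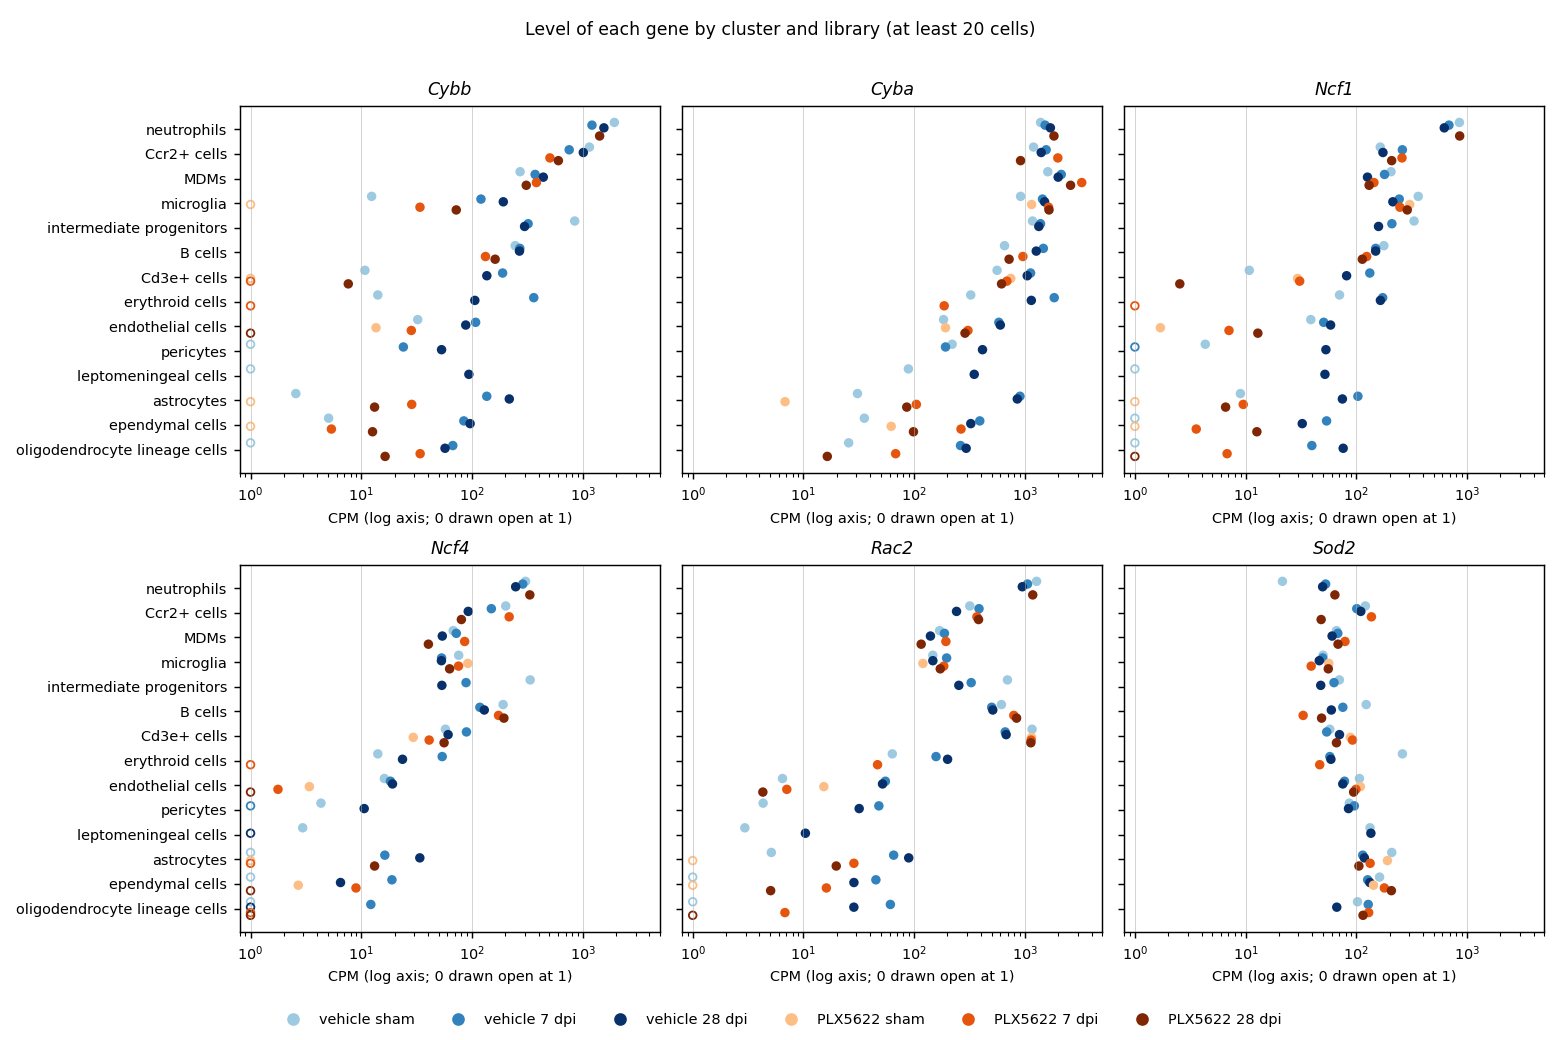
Level of each member (CPM, log10 scale) in the 14 clusters, with 1 point per library of at least 20 cells. Open points at 1 stand for 0 UMIs. Neutrophils lie to the right for *Cybb*, *Ncf1*, *Ncf4* and *Rac2*, *Cd3e*+ cells also for *Rac2*, vehicle microglia spread from 12.4 to 192 CPM for *Cybb*, and *Sod2* has astrocytes and ependymal cells to the right of microglia.

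*Cybb* encodes the catalytic, electron-carrying chain, and it was the member with the largest difference between sham and injured microglia. Microglia held 12.4 CPM (8.10 to 18.2, 26 UMIs in 674 cells) in vehicle sham cords, 121 CPM (112 to 129, 814 UMIs in 2154 cells) at 7 dpi and 192 CPM (182 to 202, 1521 UMIs in 3974 cells) after 28 days. The 3 intervals did not overlap, and *Cybb* was 9.72-fold higher at 7 dpi (log2 ratio 3.28, 2.72 to 3.90) and 15.5-fold higher at 28 dpi (3.95, 3.39 to 4.57) than in sham. Between 7 and 28 dpi the log2 ratio was 0.67 (0.55 to 0.79).

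Under PLX5622 microglial *Cybb* was listed with 0 UMIs in the 29 sham cells, which allows up to 21.2 CPM at 3 counts, with 33.9 CPM (18.1 to 58.0, 13 UMIs in 61 cells) at 7 dpi and with 72.1 CPM (49.0 to 102, 31 UMIs in 126 cells) after 28 days. Both injured PLX5622 libraries were thus below both injured vehicle libraries. The log2 ratio of PLX5622 over vehicle was -1.83 (-2.75 to -1.05) at 7 dpi and -1.41 (-1.97 to -0.90) after 28 days.

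Markers of MDMs in the microglia cluster were, like *Cybb*, higher in injured than in sham cords. From 7 to 28 dpi they did not rise with *Cybb* on either diet. The 6 MDM markers summed to 821 CPM in vehicle sham microglia (5 of 6 detected, *Ms4a7* at 0) and to 6227 and 6111 CPM at 7 and 28 dpi (6 of 6), and to 650, 3801 and 2583 CPM in the PLX5622 libraries (3 of 6 in sham, with *Gpnmb*, *Lgals3* and *Ms4a7* at 0). The 5 neutrophil markers did not move alike, at 393, 379 and 393 CPM in the vehicle libraries, and the 6 monocyte markers stood at 18.1, 31.4 and 36.7 CPM against 1689 to 3871 CPM in the vehicle *Ccr2*+ cells. The 6 microglia markers went the other way, from 19224 CPM in vehicle sham to 6819 and 7581 CPM, and from 19917 CPM to 9169 and 8532 CPM under PLX5622.

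*Cybb* was also set against MDM transcripts in each cluster. At 7 dpi in vehicle cords microglia had 306 *Cybb* UMIs (283 to 332) per 1000 UMIs of *Gpnmb* and *Ms4a7*, against 43.8 (42.8 to 44.8) in MDMs, 60.0 (38.4 to 89.8) in astrocytes and 57.8 (48.7 to 68.0) in endothelial cells. At 28 dpi the values were 813 (759 to 870) in microglia, 152 (148 to 156) in MDMs, 205 (162 to 258) in astrocytes and 211 (163 to 270) in endothelial cells. In these 2 vehicle libraries the interval of microglia lay wholly above those of these 3 clusters, but under PLX5622 at 7 dpi microglia (295, 146 to 559) and endothelial cells (400, 209 to 730) overlapped. *Gpnmb* and *Ms4a7* are also markers that name the MDM cluster, so the gap between microglia and MDMs follows in part from the clustering. In vehicle cords *Ccr2*+ cells (617 and 2038 at 7 and 28 dpi) and neutrophils (1407 and 3260) lay above microglia. Ependymal cells (75.2 and 423) and *Cd3e*+ cells (117 and 231) lay below. The part of MDM RNA in microglial *Cybb* was not tested. Per 1000 UMIs of all 6 MDM markers the gap to the first 3 clusters was smaller. At 7 dpi in vehicle cords it was 19.4 in microglia, 9.12 in MDMs, 9.18 in astrocytes, 13.5 (11.4 to 15.8) in endothelial cells and 24.9 (19.4 to 31.6) in *Cd3e*+ cells, and at 28 dpi 31.4, 17.5, 17.7, 18.5 and 20.7 in the same order. In microglia without a UMI of *Gpnmb* or *Ms4a7*, *Cybb* was at 12.5 CPM in vehicle sham (667 cells), 69.9 CPM (61.3 to 79.3, 1212 cells) at 7 dpi and 165 CPM (155 to 176, 3014 cells) after 28 days. The log2 ratios over sham were then 2.48 (1.89 to 3.12) and 3.72 (3.16 to 4.34), against 3.28 and 3.95 with all microglia. This filter was chosen after the data were seen. PLX5622 over vehicle gave -2.02 (-3.90 to -0.64) and -1.32 (-2.04 to -0.68) in the same cells.

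Shares of cells followed the same order, beside a background in other cell types. After each cell was thinned to 1000 UMIs, *Cybb* was found in 1.09% (0.403 to 2.37) of vehicle sham microglia, 8.77% (7.56 to 10.1) at 7 dpi and 15.0% (13.7 to 16.3) after 28 days, and unthinned in 2.52%, 19.6% and 22.5%. Thinning left out 126, 170 and 906 shallower microglia. In endothelial cells the thinned share was 1.32%, 3.34% and 4.29%, and in astrocytes 0.444%, 7.84% (2.18 to 18.9, 51 cells) and 12.9% (7.96 to 19.4, 147 cells). The sham share of microglia was at the endothelial background, and the injured shares lay above the endothelial intervals but overlapped those of astrocytes. Median depth was 2902.5 UMIs in microglia at 7 dpi and 1686 UMIs at 28 dpi before thinning. In PLX5622 microglia the thinned share was 0 of 25 cells (which allows up to 12.0%), 1.85% (0.0469 to 9.89) and 5.31% (1.97 to 11.2), with intervals that overlapped those of PLX5622 endothelial cells (1.41% at 7 dpi and 0 of 53 cells at 28 dpi).

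MDMs held *Cybb* in every library. They had 272 CPM (246 to 301) in vehicle sham, 372 CPM (364 to 381) at 7 dpi and 441 CPM (430 to 452) after 28 days, and 382 CPM (353 to 412) and 309 CPM (280 to 341) at 7 and 28 dpi under PLX5622. The 9 PLX5622 sham cells held 8 UMIs (123 CPM, 53.2 to 243). Over vehicle sham the log2 ratio was 0.45 (0.30 to 0.60) at 7 dpi and 0.70 (0.55 to 0.85) after 28 days, and PLX5622 over vehicle gave 0.04 (-0.08 to 0.15) and -0.51 (-0.66 to -0.37). Without the cells of over 3000 genes these 4 values were 1.01, 1.25, 0.46 and -0.32, so the size of each depended on these deep cells. Markers differed between these libraries too, but in vehicle cords they turned back at 28 dpi, where *Cybb* was highest. In the vehicle MDMs the 6 microglia markers summed to 8738, 2793 and 4265 CPM and the 6 MDM markers to 12890, 40803 and 25183 CPM in sham, 7 dpi and 28 dpi cords, and the 9 MDMs of PLX5622 sham held 13179 CPM of microglia and 4357 CPM of MDM markers. Per 1000 UMIs of *Gpnmb* and *Ms4a7* vehicle MDMs had 96.9, 43.8 and 152 *Cybb* UMIs, an order in which 7 dpi was lowest. In injured PLX5622 MDMs the 6 microglia markers summed to 2367 and 3657 CPM at 7 and 28 dpi. The 6 MDM markers summed to 71603 and 32930 CPM in the same cells. The part of the markers in the level of *Cybb* was not tested. MDMs exceeded microglia 21.9-fold in vehicle sham cords, 3.09-fold at 7 dpi and 2.30-fold at 28 dpi, and 11.3-fold and 4.29-fold in the injured PLX5622 cords. Clusters were drawn on the same cells, so these differences between clusters are descriptions.

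The *Ccr2*+ cells and the neutrophils had their highest vehicle level of *Cybb* in sham cords and their lowest at 7 dpi. The *Ccr2*+ cells had 1150 CPM (1054 to 1253) in vehicle sham, 755 CPM (719 to 793) at 7 dpi and 1013 CPM (936 to 1094) after 28 days, with 1529 (14 cells), 506 and 603 CPM under PLX5622. The sham and 28 dpi intervals of vehicle *Ccr2*+ cells overlapped. Their log2 ratio of PLX5622 over vehicle was -0.58 (-0.84 to -0.32) at 7 dpi and -0.75 (-0.99 to -0.51) after 28 days. Neutrophils had 1933 CPM (1773 to 2103) in vehicle sham, 1213 CPM (1116 to 1317) at 7 dpi and 1555 CPM (1429 to 1689) after 28 days, with 1358 CPM in PLX5622 sham and 1422 CPM at 28 dpi. Markers differed between the libraries in both clusters. In vehicle *Ccr2*+ cells the 6 monocyte markers summed to 3871, 1867 and 1689 CPM and the 6 MDM markers to 2126, 7397 and 4215 CPM in sham, 7 dpi and 28 dpi cords, and per 1000 UMIs of monocyte markers *Cybb* had 297, 405 and 600 UMIs, lowest in sham. In vehicle neutrophils the 5 neutrophil markers summed to 390910, 273069 and 283156 CPM and the MDM markers to 1291, 5608 and 4533 CPM. Per 1000 UMIs of neutrophil markers *Cybb* had 4.94, 4.44 and 5.49 UMIs, highest at 28 dpi, and the sham interval overlapped both others. The part of the markers in these levels of *Cybb* was not tested. The 12 neutrophils of PLX5622 cords at 7 dpi stood apart with 1 UMI (37.7 CPM, 0.954 to 210), although they held 37 UMIs of *Cyba* and 21 of *Ncf1*. *Cybb* was 1.04% (0.0264 to 5.67) of their subunit UMIs against 25.3% to 33.6% in the other 5 libraries, and their 5 neutrophil markers summed to 127638 CPM against 273069 to 408038 CPM elsewhere. The part of that lower marker level in the low *Cybb* value was not tested.

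*Cyba* encodes the membrane partner that stabilises the catalytic chain and anchors the cytosolic subunits. In microglia it was at 916 CPM (875 to 957) in vehicle sham, 1443 CPM (1415 to 1472) at 7 dpi and 1508 CPM (1481 to 1536) after 28 days, and at 1151 CPM (981 to 1342), 1638 CPM (1513 to 1771) and 1652 CPM (1533 to 1778) under PLX5622. Both diets had higher *Cyba* after injury, with vehicle log2 ratios of 0.66 (0.59 to 0.73) and 0.72 (0.65 to 0.79). PLX5622 over vehicle was 0.18 (0.06 to 0.30) at 7 dpi and 0.13 (0.02 to 0.24) after 28 days, so by totals *Cyba* was slightly higher where *Cybb* was lower, although cells thinned to equal depth gave -0.02 for *Cyba* at 7 dpi. TMM scaling lowers these ratios by 0.11 and 0.05, more than the lower limits of 0.06 and 0.02. Both intervals then reach below 0. In MDMs *Cyba* was at 1612, 2132 and 2000 CPM under vehicle and at 1370, 3264 and 2588 CPM under PLX5622. The injured PLX5622 MDMs were highest, with log2 ratios over vehicle of 0.61 (0.57 to 0.65) at 7 dpi and 0.37 (0.32 to 0.42) after 28 days. These cells were also deeper, with medians of 15945 and 6843 UMIs per cell against 5777 and 3875 UMIs under vehicle.

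**Figure D2:**
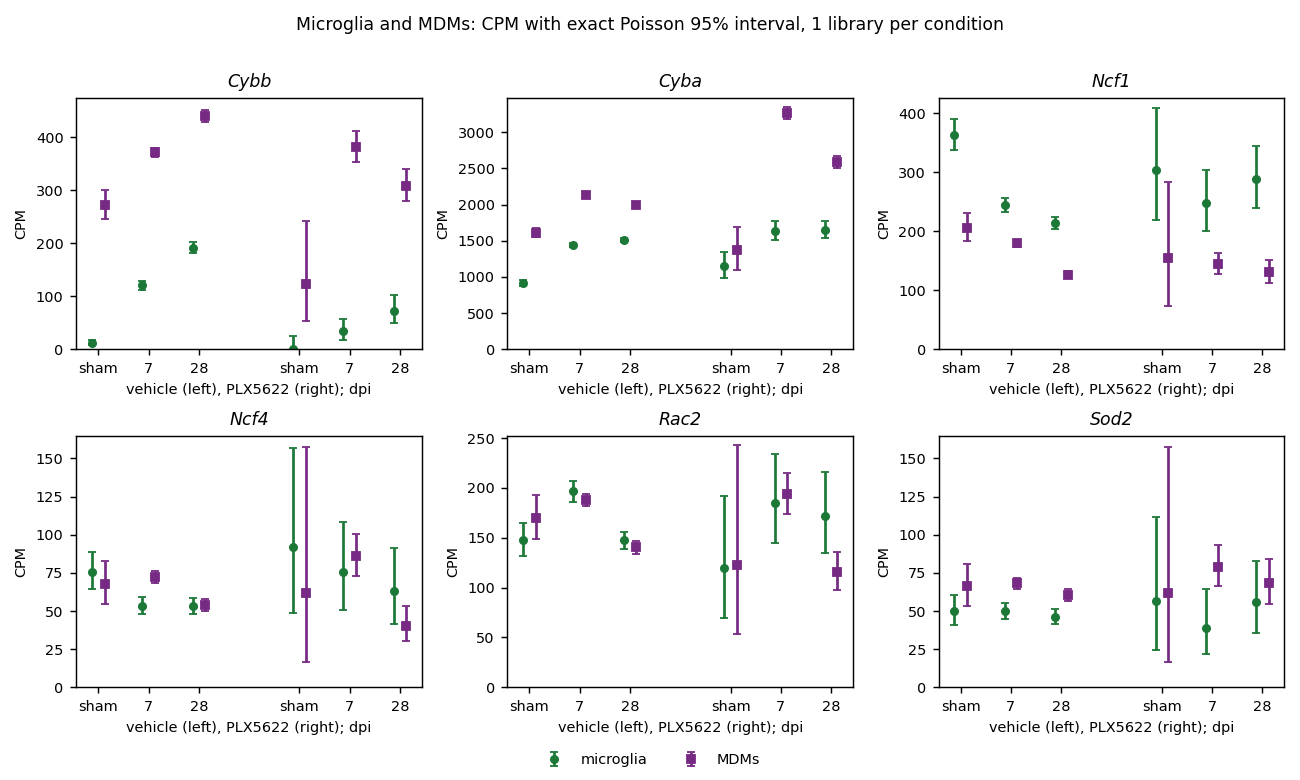
Level of each member (CPM with exact Poisson 95% interval) in microglia and MDMs for sham, 7 dpi and 28 dpi cords of vehicle and PLX5622 mice, with 1 library per point. *Cybb* in vehicle microglia is at 12.4, 121 and 192 CPM and *Ncf1* at 363, 244 and 214 CPM, where the sign of the 7 dpi ratio of *Ncf1* turns under TMM or DESeq2 scaling.

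*Ncf1* encodes the organiser subunit whose phosphorylation starts assembly, and in microglia its CPM went the other way from *Cybb*. It was at 363 CPM (337 to 389) in vehicle sham, 244 CPM (233 to 256) at 7 dpi and 214 CPM (204 to 224) after 28 days, with log2 ratios of -0.57 (-0.69 to -0.44) and -0.76 (-0.89 to -0.64). The median of all genes was itself -0.55 and -0.44 in these comparisons, so *Ncf1* was -0.02 and -0.32 from it, and at 7 dpi its ratio turned to 0.06 with TMM and 0.08 with DESeq2 scaling. Under PLX5622 *Ncf1* was at 304, 248 and 289 CPM in microglia, and the log2 ratio over vehicle was 0.02 (-0.29 to 0.32) at 7 dpi and 0.43 (0.16 to 0.70) after 28 days. In MDMs *Ncf1* was at 206, 180 and 126 CPM under vehicle and at 154, 144 and 131 CPM under PLX5622. The vehicle log2 ratio was -0.20 (-0.37 to -0.02) at 7 dpi, where it turned to 0.16 under both other scalings, and -0.71 (-0.89 to -0.52) at 28 dpi. MDMs lay below microglia in all 6 libraries, with log2 ratios from -0.44 (-0.53 to -0.36, vehicle 7 dpi) to -1.14 (-1.49 to -0.80, PLX5622 28 dpi), and in PLX5622 sham the interval reached above 0.

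*Ncf4* encodes a subunit that binds the lipid of phagosome membranes. Vehicle microglia had 75.9 CPM (64.5 to 88.6) in sham, 53.2 CPM (47.8 to 59.0) at 7 dpi and 53.0 CPM (48.0 to 58.3) after 28 days. The log2 ratios of -0.51 (-0.79 to -0.23) and -0.52 (-0.78 to -0.25) were 0.03 and -0.08 from the median of all genes, and the 7 dpi value turned to 0.12 and 0.13 with TMM and DESeq2 scaling. PLX5622 microglia had 91.8, 75.6 and 62.8 CPM on 13, 29 and 27 UMIs, and their intervals overlapped those of the vehicle libraries. In MDMs *Ncf4* was at 67.7, 72.2 and 53.9 CPM under vehicle, and at 85.9 CPM (72.7 to 101) and 40.4 CPM (30.2 to 53.0) at 7 and 28 dpi under PLX5622. That last pair differed by -1.09 (-1.57 to -0.62) on the log2 scale.

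Shares among the 5 subunits do not depend on the scaling of the libraries. In vehicle microglia *Cybb* was 0.819% (0.536 to 1.20) of the subunit UMIs in sham, 5.86% (5.47 to 6.26) at 7 dpi and 9.07% (8.64 to 9.52) after 28 days, while *Ncf1* was 24.0% (22.5 to 25.5), 11.9% (11.3 to 12.4) and 10.1% (9.66 to 10.6). *Cybb* was 0%, 1.56% and 3.21% in PLX5622 microglia and *Ncf1* 18.2%, 11.4% and 12.8%. The number of *Cybb* UMIs per *Ncf1* UMI was 0.034 in vehicle sham microglia, 0.494 at 7 dpi and 0.897 at 28 dpi. In vehicle MDMs it was 1.32 in sham, 2.07 at 7 dpi and 3.49 at 28 dpi, so the ratio was higher after injury in both populations. In MDMs *Cybb* was 11.7%, 12.6% and 16.0% of the subunit UMIs under vehicle and 9.39% and 9.71% in the injured PLX5622 cords. The *Ccr2*+ cells had 37.9%, 24.3% and 34.6% under vehicle and 35.3%, 15.2% and 27.6% under PLX5622, where 7 dpi was lowest on both diets.

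**Figure D3:**
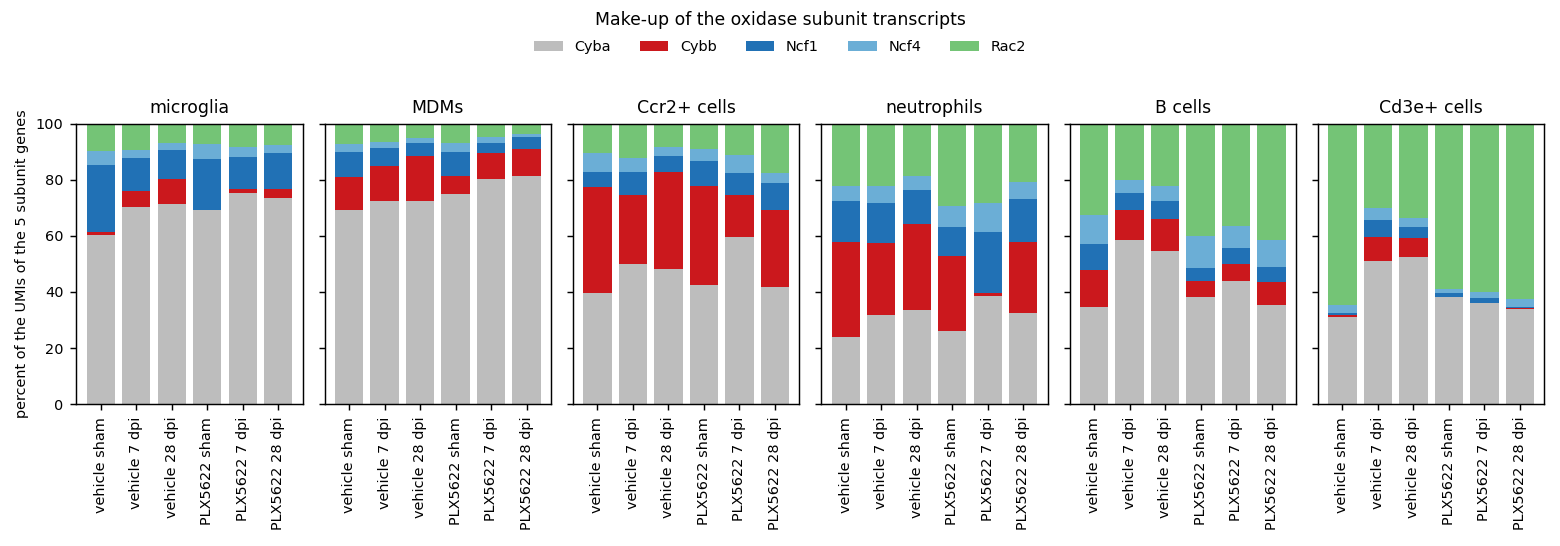
Share of the UMIs of the 5 oxidase subunits (percent) that each subunit made up in microglia, MDMs, *Ccr2*+ cells, neutrophils, B cells and *Cd3e*+ cells, with 1 bar per library. In microglia the *Cybb* part is 0.819% in vehicle sham and 9.07% at 28 dpi, and the *Ncf1* part 24.0% and 10.1%.

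Joint presence of subunits in 1 cell was most frequent in neutrophils. At 1000 UMIs per cell, UMIs of at least 3 of the 5 subunits were found in 56.9% (43.2 to 69.8), 62.4% (53.3 to 70.9) and 61.2% (52.3 to 69.7) of neutrophils in vehicle sham, 7 dpi and 28 dpi cords. Shallower cells were left out, so 58 of 64, 125 of 223 and 129 of 189 neutrophils entered. The same share was 24.2%, 23.1% and 17.1% in *Ccr2*+ cells, 6.86%, 11.5% and 8.81% in MDMs and 3.83%, 6.15% and 6.19% in microglia. B cells had 26.1%, 11.6% and 18.1%, intermediate progenitors 19.2%, 14.1% and 11.5% and *Cd3e*+ cells 0%, 8.26% and 4.98%. The share was thus not limited to phagocyte clusters. In vehicle endothelial cells it was 0% of 76 cells (which allows up to 3.95%), 0.669% and 0.660%.

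*Rac2* is the blood-cell form of Rac and was not limited to phagocytes. Microglia had 147 CPM (131 to 165), 197 CPM (186 to 207) and 148 CPM (139 to 156) in vehicle sham, 7 dpi and 28 dpi cords, and 120, 185 and 172 CPM under PLX5622. The 7 dpi vehicle value was above both others, with a log2 ratio over sham of 0.41 (0.24 to 0.60), and that of 28 dpi was 0.00 (-0.18 to 0.19), which became 0.50 (0.32 to 0.69) with TMM and 0.49 with DESeq2 scaling. MDMs had 170, 188 and 140 CPM under vehicle and 194 and 116 CPM at 7 and 28 dpi under PLX5622. The vehicle ratio at 28 dpi was -0.28 (-0.47 to -0.08) and turned to 0.05 and 0.04 with TMM and DESeq2 scaling. The *Cd3e*+ cells had 1163 CPM (1039 to 1297) in vehicle sham but 665 CPM (584 to 753) and 678 CPM (615 to 746) after injury, and 1133 to 1149 CPM under PLX5622. In *Cd3e*+ cells with fewer than 3 UMIs of a 12-gene myeloid list the vehicle values were 901, 945 and 1018 CPM on 12, 29 and 101 cells, with overlapping intervals. In PLX5622 sham *Cd3e*+ cells that list held 203 UMIs beside 0 of the MDM, 0 of the neutrophil and 87 of the monocyte markers. The filter may thus also remove cells by transcripts of their own, and the part of myeloid RNA was not tested. Neutrophils had 948 to 1487 CPM over the 6 libraries.

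By totals *Sod2*, which removes superoxide in mitochondria, had overlapping intervals in the microglia of all conditions. Microglia had 50.1 CPM (41.0 to 60.6), 49.8 CPM (44.6 to 55.4) and 46.3 CPM (41.7 to 51.3) in the vehicle libraries and 56.5, 39.1 and 55.8 CPM under PLX5622. The vehicle log2 ratios over sham were -0.01 (-0.33 to 0.32) and -0.11 (-0.43 to 0.21), which is 0.54 and 0.33 from the median of all genes. The TMM reference lay -0.63 and -0.50 from that by totals, so with TMM scaling both intervals lie above 0. MDMs had 66.3, 68.1 and 60.4 CPM under vehicle and 79.0 and 68.4 CPM at 7 and 28 dpi under PLX5622. The only intervals of injured MDMs that did not overlap were vehicle 28 dpi (56.4 to 64.7) and PLX5622 7 dpi (66.4 to 93.4). The log2 ratio of 28 over 7 dpi in vehicle MDMs was -0.17 (-0.30 to -0.05), an interval that lay below 0. Astrocytes had 209 CPM (178 to 244) in vehicle sham and 114 CPM (70.7 to 175) and 118 CPM (87.5 to 156) after injury, with 191, 133 and 106 CPM under PLX5622. The vehicle intervals after injury lay below that of sham, while those of PLX5622 overlapped, and injured vehicle astrocytes also carried myeloid UMIs.

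*Nos2* was nearly absent. The count table held 18 UMIs among 21016 cells, of which 16 lay in endothelial cells, 1 in an MDM and 1 in a *Ccr2*+ cell, and none in the 7018 microglia or 531 neutrophils. By library the endothelial UMIs were 0, 7 and 0 in vehicle sham, 7 dpi and 28 dpi cords and 4, 5 and 0 under PLX5622. *Nos2* was found in 1.49% (0.853 to 2.41) of 1075 endothelial cells and in 0.0130% (0.00157 to 0.0469) of the 15407 cells of the 4 myeloid clusters, although the median depth was lower in the former (2152 against 3234 UMIs per cell). The library matrices held 21 UMIs, 18 of them in endothelial cells. The other 3 UMIs, 2 in endothelial cells and 1 in a *Ccr2*+ cell, were in 2 libraries where the table lists *Nos2* at 0, since it drops genes found in fewer than 3 barcodes of a library. With these counts no comparison between conditions could be made.

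A fold was taken only where both libraries of a comparison jointly held 100 or more UMIs of the gene, which 6 of the 7 members met and *Nos2* did not. In microglia at 7 dpi over sham 1 of the 6 (*Cybb*) was at least 2-fold higher and 0 were at least 2-fold lower, where 3.94% and 21.5% of all genes were. Their median log2 ratio was 0.20, against -0.55 over all genes. With TMM scaling 3 (*Cybb*, *Cyba* with 1.29 and *Rac2* with 1.05) were 2-fold higher and 0 lower, where 12.2% and 3.72% of all genes were. At 28 dpi the counts were again 1 (*Cybb*) and 0, against 3.52% and 12.5% of all genes, and the medians were -0.06 and -0.44. With TMM scaling 2 (*Cybb* and *Cyba* with 1.22) were higher, where 8.82% of all genes were, and DESeq2 scaling named the same members at both times. For PLX5622 over vehicle in microglia 0 members were 2-fold higher and 1 (*Cybb*) was 2-fold lower at 7 dpi, where 1.89% and 4.74% of all genes were, with medians of -0.03 and -0.01. At 28 dpi the counts were the same, against 1.64% and 5.81%, and the medians were 0.23 and -0.04.

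In MDMs, by totals, no member passed 2-fold in either direction in any of the 4 comparisons. *Cybb* over sham passed it without the cells of over 3000 genes (1.01 at 7 dpi and 1.25 at 28 dpi), with cells thinned to 1000 UMIs (1.09 and 1.38) and at 28 dpi with TMM (1.02) and DESeq2 scaling (1.01). Of all genes 6.87% and 3.72% were 2-fold higher at 7 and 28 dpi without those deep cells, and 9.98% and 5.29% with thinned cells. At 28 dpi these shares were 3.76% with TMM and 3.72% with DESeq2 scaling. By totals the shares over all genes were 3.96% higher and 11.0% lower at 7 dpi over sham, 1.53% and 5.63% at 28 dpi over sham, 1.83% and 2.15% for PLX5622 over vehicle at 7 dpi, and 2.33% and 2.46% at 28 dpi. The medians of the members were 0.12, -0.20, 0.13 and -0.11, beside -0.25, -0.25, 0.00 and 0.01 over all genes. The comparisons over sham share the vehicle sham library, and the injured vehicle libraries enter both kinds of comparison.

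**Figure D4:**
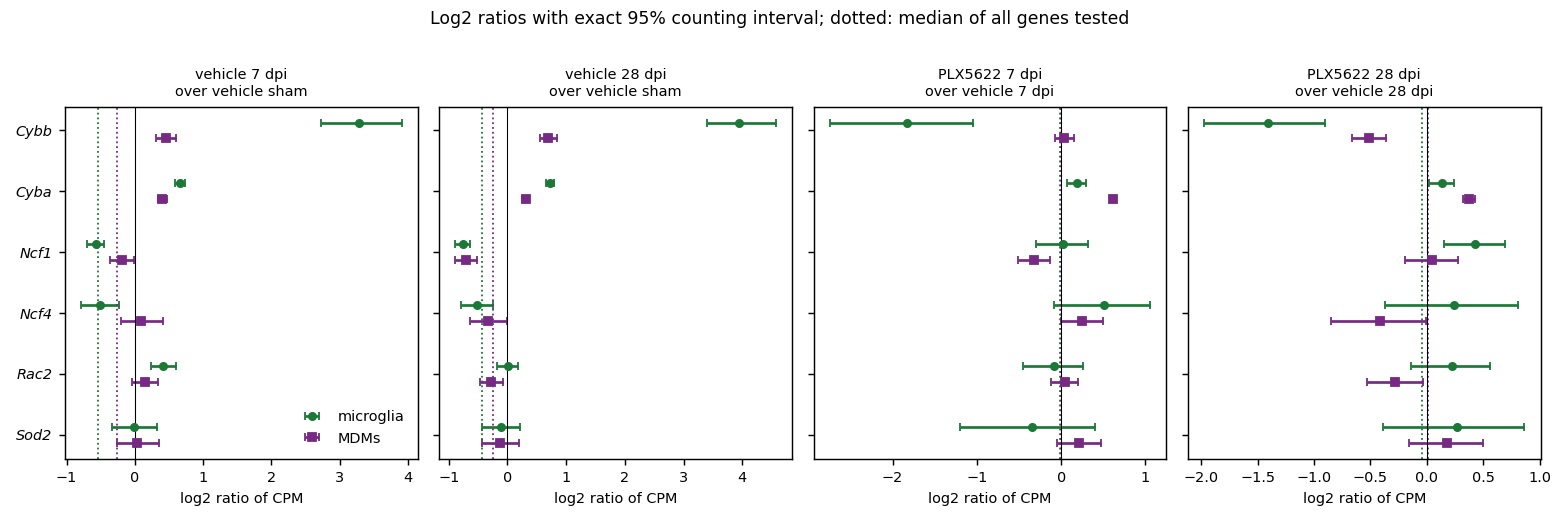
Log2 ratios of the 6 members with enough UMIs (points with exact 95% interval) in the 4 comparisons in microglia and MDMs, with the median of all genes in each comparison marked. *Cybb* in microglia lies at 3.28 and 3.95 over sham and at -1.83 and -1.41 for PLX5622 over vehicle, and by totals no other member reaches 1 in either direction, while under TMM or DESeq2 scaling *Cyba* in microglia at both times over sham, *Rac2* in microglia at 7 dpi and *Cybb* in MDMs at 28 dpi do. *Ncf1* and *Ncf4* in microglia at 7 dpi, *Ncf1* in MDMs at 7 dpi and *Rac2* in MDMs at 28 dpi change sign under TMM or DESeq2 scaling.

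A list of 48 further genes was set, of which 44 were in the table. Their counts by totals are read against all genes, of which in microglia 3.94% were 2-fold higher and 21.5% lower at 7 dpi over sham (median -0.55) and 3.52% and 12.5% at 28 dpi (median -0.44). Of the 15 oxidase partners and relatives, 4 had enough UMIs in microglia. At 7 dpi 0 were 2-fold higher and 1 was 2-fold lower than in sham (median -0.34), and the same held at 28 dpi (median -0.24), and with TMM scaling both medians were above 0 (0.30 and 0.26). The one lower gene was *BC017643*, the older symbol of *Cybc1*, whose product helps the membrane subunits to mature. It was at 170 CPM in vehicle sham microglia, 39.5 CPM at 7 dpi (log2 ratio -2.10, -2.34 to -1.87) and 57.5 CPM at 28 dpi (-1.56, -1.77 to -1.36), in the direction opposite to *Cybb*. In MDMs it was at 78.3, 33.5 and 39.2 CPM. *Rac1*, the widely expressed Rac, was at 334, 373 and 348 CPM, and *Hvcn1*, the proton channel that balances the charge, at 142, 119 and 124 CPM. *Nox4* had no UMI in microglia or MDMs in these comparisons, and *Mpo*, the neutrophil peroxidase, had at most 4 per library.

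The 8 regulators of Rac and of the organiser subunit all had enough UMIs in microglia, with 0 higher and 3 lower by 2-fold at 7 dpi (median -0.69) and 0 and 1 at 28 dpi (median -0.48), where 1 of 8 equals the share of all genes. With TMM scaling none of the 8 passed 2-fold at either time, and the medians were -0.06 and 0.02. *Prkcd*, a kinase that phosphorylates the organiser, was at 221, 74.4 and 106 CPM, *Pak1*, a kinase downstream of Rac, at 62.0 and 29.2 CPM in sham and at 7 dpi, and *Rap1a*, a GTPase found with the flavocytochrome, at 255 and 126 CPM. In MDMs 2 of the 8 were 2-fold lower at 7 dpi (*Prkcd* with -1.13 and *Pak1* with -1.38, 1 of them with TMM scaling), beside 11.0% of all genes, and 0 at 28 dpi. Under PLX5622 1 was 2-fold lower in MDMs at 28 dpi (*Pak1*, -1.22), beside 2.46% of all genes, and the other 3 comparisons had none.

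Genes of oxidant defence had medians above 0 over sham. In microglia 17 of the 21 had enough UMIs, 3 were 2-fold higher and 1 lower at 7 dpi (median 0.55), and 3 and 0 at 28 dpi (median 0.31). With TMM scaling 10 and 5 were higher and 0 lower, where 12.2% and 8.82% of all genes were higher. *Sod1*, the cytosolic superoxide dismutase, was at 22.9, 76.7 and 51.5 CPM, *Prdx1*, a peroxiredoxin, at 241, 658 and 628 CPM, and *Prdx5* at 16.7, 49.8 and 57.1 CPM, while *Gclc*, the first enzyme of glutathione synthesis, was at 54.4 and 25.9 CPM in sham and at 7 dpi. *Cat*, catalase, was at 39.6, 39.4 and 41.4 CPM, and *Gpx1* was at 504, 737 and 550 CPM. In MDMs, where 3.96% of all genes were 2-fold higher at 7 dpi, 5 of 19 were higher and 0 lower (median 0.57), namely *Gpx3* (1.81), *Prdx5* (1.46), *Prdx1* (1.18), *Srxn1* (1.17) and *Gpx1* (1.11). At 28 dpi 3 were higher (*Gpx3*, *Prdx5* and *Srxn1*, median 0.03), beside 1.53% of all genes. Among the partners *Xdh*, which makes superoxide itself, was at 13.4 and 43.4 CPM in sham and 7 dpi MDMs (1.70).

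For PLX5622 over vehicle few of the listed genes passed 2-fold. Of all genes 1.89% were 2-fold higher and 4.74% lower in microglia at 7 dpi, and 1.64% and 5.81% at 28 dpi. In MDMs these shares were 1.83% and 2.15% at 7 dpi and 2.33% and 2.46% at 28 dpi. In microglia 1 of 18 defence genes was 2-fold higher at 7 dpi (*Prdx5*, 1.24) and 2 were lower (*Txnrd1* with -1.40 on 3 UMIs and *Keap1* with -1.24 on 5 UMIs), as was *Xdh* among the partners (-1.12 on 4 UMIs), the intervals of these 3 reaching above 0, and at 28 dpi 1 was lower (*Hmox1*, heme oxygenase, -1.23, -2.11 to -0.48). In MDMs *Prdx5* (1.52) and *Hmox1* (1.18, 465 against 205 CPM) were 2-fold higher at 7 dpi, and *Txn1* (1.55), *Gpx3* (1.09) and among the partners *Xdh* (1.35) at 28 dpi. *Arg1*, which uses the substrate of *Nos2*, had 2 UMIs in vehicle sham MDMs, 617 UMIs (31.0 CPM, log2 ratio 4.46, 2.60 to 7.51) at 7 dpi and 3 at 28 dpi, with 43.5 CPM under PLX5622 at 7 dpi.

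In vehicle cords astrocytes, endothelial, ependymal and *Cd3e*+ cells had higher *Cybb* and *Cyba* after injury, and the level was lower in cells with few myeloid transcripts. *Cybb* in vehicle astrocytes was at 2.56, 136 and 217 CPM in sham, 7 dpi and 28 dpi cords, and in the astrocytes with fewer than 3 UMIs of the 12-gene myeloid list it was on 2, 2 and 1 UMIs (2.72, 50.4 and 7.54 CPM). *Cyba* in astrocytes was at 30.8, 903 and 855 CPM with all cells and at 10.9, 25.2 and 75.4 CPM in the remaining 295, 28 and 123 cells. In PLX5622 astrocytes *Cyba* was at 6.83, 105 and 85.8 CPM with all cells, below the injured vehicle libraries.

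Endothelial *Cyba* after injury was above the vehicle sham value also with the same filter, where the interval at 7 dpi overlapped that of sham and the interval at 28 dpi did not. It was at 184, 582 and 600 CPM in vehicle endothelial cells, and at 152 CPM (105 to 213), 255 CPM (208 to 308) and 270 CPM (215 to 334) in those with fewer than 3 myeloid UMIs. The same cells of PLX5622 cords had 178, 250 and 231 CPM. *Cybb* in these cells was on 1, 2 and 2 UMIs under vehicle and 0 under PLX5622. B cells, which are known to carry the oxidase, had *Cybb* at 253 CPM (11 UMIs) and 195 CPM (17 UMIs) at 7 and 28 dpi after the same filter, against 271 and 269 CPM with all cells. In PLX5622 sham B cells the filter list held 64 UMIs beside 2 of the MDM, 2 of the neutrophil and 48 of the monocyte markers. The filter may thus also remove B cells by transcripts of their own.

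**Figure D5:**
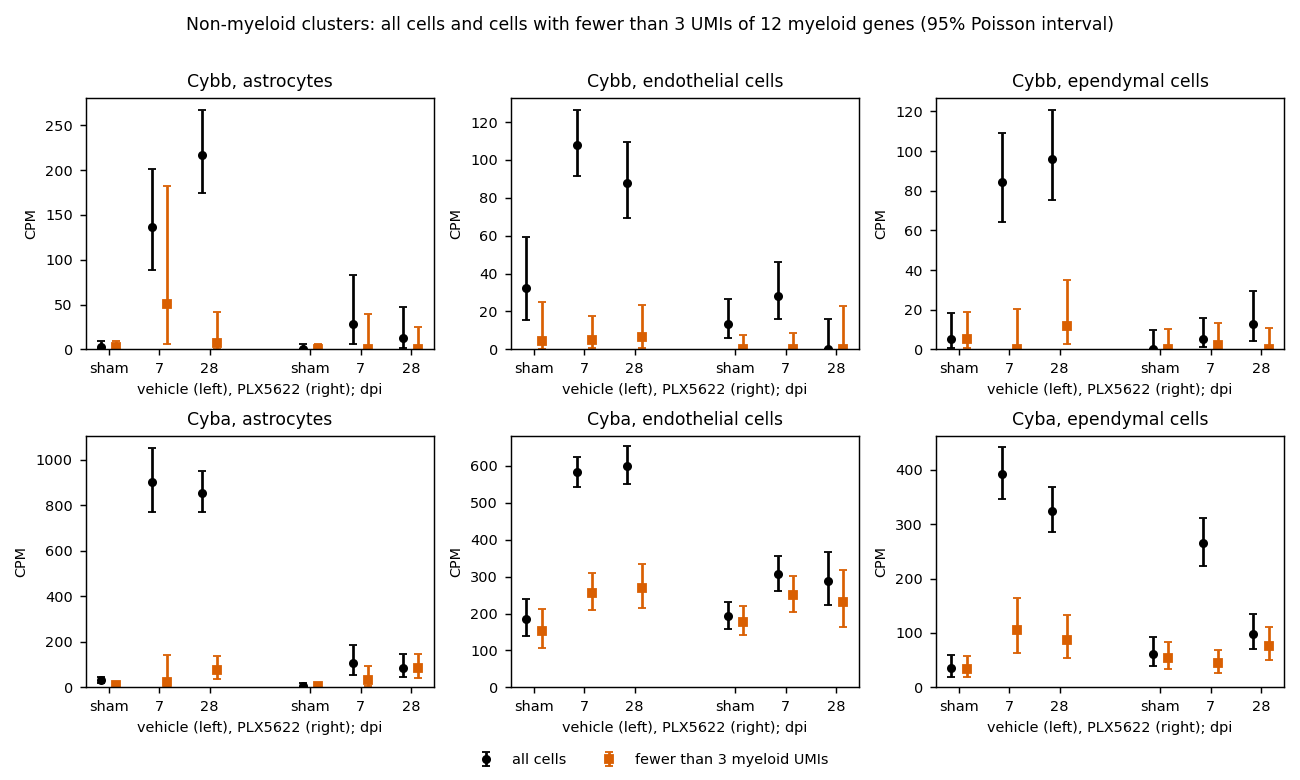
Level of *Cybb* and *Cyba* (CPM with exact Poisson 95% interval) in astrocytes, endothelial cells and ependymal cells by library, with all cells and with the cells that held fewer than 3 UMIs of a 12-gene myeloid list. Astrocyte *Cyba* at 28 dpi is at 855 CPM with all cells and 75.4 CPM with the filter, and endothelial *Cyba* at 600 and 270 CPM.

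Intermediate progenitors, a cluster of dividing cells, had *Cybb* at 847 CPM (748 to 955) in the 29 vehicle sham cells and at 321 and 299 CPM after injury, with *Rac2* at 697, 328 and 253 CPM and *Ncf4* at 336, 88.4 and 53.5 CPM. Their *Mpo* was at 1234, 91.3 and 77.3 CPM in the same libraries, a gene of granulocyte precursors, and its part in these levels was not tested.

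Genes most like each member over the 66 combinations of cluster and library with at least 20 cells were found by Pearson's r of log2(CPM + 10). The combinations share libraries and clusters, so r is a description. For *Cybb* these were *Lilrb4* (0.88), *Clec12a* (0.87) and *Cyp4f18* (0.86), for *Cyba* *Sh3bgrl3* (0.92), *Cd53* (0.92) and *Cd52* (0.91), and for *Ncf1* *Spi1* (0.95) and *Nfam1* (0.94). For *Ncf4* they were *Syk*, *Ptpn6* and *Gmfg* (0.92 each), for *Rac2* *Coro1a* (0.96), *Ptprc* (0.94) and *Gmfg* (0.94), and for *Sod2* *Pyurf* (0.79), *Mrps6* (0.74) and *Itsn1* (0.71). Among the members r of *Ncf4* with *Rac2* was 0.89 and of *Ncf4* with *Ncf1* 0.85, and r of *Sod2* with each of the 5 subunits was below 0.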

How the data were processed

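Cords were dissociated, cleared of myelin and dead cells and profiled by droplet 3′ single-cell RNA sequencing. The authors made UMI counts per gene and cell with Cell Ranger on mm10 (GRCm38) and merged and clustered them with Seurat. The deposited table holds these raw counts, with genes found in fewer than 3 barcodes of a library at 0. It includes 716 of 21016 cells of over 3000 genes, although the study's methods state a filter at that number.

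UMIs were summed per cluster and library and scaled to CPM, with Python 3.11.15, pandas 2.3.3 and scipy 1.17.1. Intervals are exact 95% Poisson, conditional binomial (ratios) or Clopper-Pearson (shares). With 1 library per condition no test was run. Ratios were taken where a gene had 100 or more UMIs over the pair of libraries, and scaling factors from edgeR 4.0.16 (TMM) and DESeq2 1.42.0 were alternatives. The scripts were tested on simulated data. Members and gene lists were chosen with earlier results of these data known. Named genes are the members, 12 fixed pathway genes, any listed gene past 2-fold and the 3 genes most alike by r. *Cybc1* was matched through its older symbol. Doublets were scored with Scrublet (scanpy 1.11.5) and kept. Bulk samples were not analysed here, and some genes that these rules name are not reported here.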

Additional observations from a re-analysis of the deposited data

Results flagged for a closer look

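Among 76 pairs of contrasts compared, 3 had intervals on opposite sides of 0. None of these differences was tested, since each condition is 1 library. *Cybb* in MDMs at 28 over 7 dpi had a log2 ratio of 0.24 under vehicle and -0.30 under PLX5622. *Cyba* at 28 over 7 dpi in vehicle cords had 0.064 in microglia and -0.092 in MDMs. *Cyba* in *Ccr2*+ cells had a log2 ratio of PLX5622 over vehicle of 0.35 at 7 dpi and -0.62 at 28 dpi.

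For *Nos2*, 3 UMIs in the library matrices, outside the main measurement, are listed at 0 in the count table.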

How the results depend on the processing

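With TMM and DESeq2 scaling the median log2 ratio of the members over sham was 0.84 and 0.85 in microglia at 7 dpi, 0.44 and 0.44 at 28 dpi, 0.47 and 0.47 in MDMs at 7 dpi and 0.12 and 0.11 at 28 dpi. Under the same scalings *Ncf1* was 0.064 and 0.077 and *Ncf4* 0.12 and 0.13 in microglia at 7 dpi, *Ncf1* 0.16 and 0.16 in MDMs at 7 dpi, and *Rac2* 0.046 and 0.043 in MDMs at 28 dpi, each of opposite sign to the value by totals. These scalings set all genes against a reference that lay -0.63 and -0.65 (log2) from that by totals in microglia at 7 dpi, so every ratio there was higher by the size of that shift. With cells thinned to 1000 UMIs the median for PLX5622 over vehicle in MDMs at 28 dpi was 0.32, and 3 ratios turned sign: *Cyba* in microglia, PLX5622 over vehicle at 7 dpi (-0.024), *Ncf4* in MDMs at 28 dpi over sham (0.11) and *Rac2* in MDMs, PLX5622 over vehicle at 28 dpi (0.40). The cause was not tested. Over all alternatives 59 medians of members stayed within the median of the members' intervals and 9 did not, and of the ratios of single members 277 stayed within their interval, 71 did not and 11 turned sign. Scrublet marked 1 of 7439 and 1 of 9846 cells in the injured vehicle libraries, so it had not worked there. Leaving out the 1256 cells of highest score, leaving out cells of over 3000 genes and leaving out microglia with MDM transcripts were chosen after seeing the data. No paired analysis was possible because each condition is 1 library.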
